A study of Danio rerio with 4 samples.

Results

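The genes around *egr3* on zebrafish chromosome 8 were compared between hearts of *egr3* mutants and of their wild-type siblings. A gene counted as a neighbor when its annotated interval lay wholly within 5 Mb of the *egr3* interval and its mean normalized count over the 4 libraries was at least 5. These limits left 124 neighbors, without *egr3* itself, among 17501 genes at or above the same mean in a table of 19661 genes. The mutants were homozygous for *bns577*, a frameshifting 11-bp deletion in *egr3* expected to truncate the encoded factor, and the wild types were *bns577*+/+ embryos of the same crosses. Hearts were dissected at 48 hours post-fertilization (hpf), and each library was made from 1 pool of 20 hearts, with 2 pools per genotype (Wild Type, replicates 1 and 2; *egr3* mutant, replicates 1 and 2). The deletion is a germline allele present in every cell of the embryo, and the labels do not say whether the pools came from separate clutches, so p-values measure only the spread between these pools.

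*egr3* encodes a zinc-finger transcription factor of the early growth response family, which in the heart is known for its place in the flow-responsive endocardium of the developing valves. Genes that lie close together on a chromosome tend to be inherited together, so embryos sorted by genotype at one locus also share, on average, the sequence variants of the chromosome around it, and this sharing declines with recombination over distance. Neighboring genes can also share enhancers and promoters. In this design an effect of the *egr3* deletion and an effect of any other variant inherited with it cannot be told apart.

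The CRISPR site of the deletion and the primers that read the genotype are shown because they mark the *egr3* locus. Distances are counted from the annotated *egr3* interval. Capitals in the CRISPR site mark the 3 bases of the protospacer-adjacent motif (PAM), and capitals in the reverse primer mark the 15 bases that it shares with the CRISPR site. The primer pair was used to tell mutants from wild types by high-resolution melt analysis.
CRISPR site: ggcaaggatgaggacgtggcCGG
forward primer: ctacctgcctactccacctg
reverse primer: cgggtagGGCAAGGATGAGGAC

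The deposited values summed to between 9161759 and 9481943 per library, and between 19065 and 19195 genes were above 0. The 4 libraries need some care. The processing overview of the study links the replicate 2 column of each genotype to a read file named for the other genotype, so genotypes here follow the labels, and the counts below are also given for each replicate pair alone. In addition, wild-type and mutant pools of the same number deviated from their genotype means in opposite directions (r = -0.99 across genes, a description), so that each gene holds close to 1 independent measure of spread while the fit counts 2. Markers of other tissues also differed. The summed level of 7 skin markers was 18264 in wild-type replicate 2 and between 1117 and 3677 in the other libraries. The 4 rows of 3 hatching gland markers summed to 1432 and 1758 in wild-type pools and to 27 and 21 in mutant pools. The 5 neural markers summed to 568 to 615 in wild-type pools and 761 to 928 in mutant pools, most of it from *tubb5*. Of these neural markers, *elavl3* and *snap25a* were higher and *gfap* was lower without overlap and by at least 1.5-fold. The summed levels of the 8 rows of myocardial markers (22342 to 24675) and of the 7 endocardial and endothelial markers (22346 to 24491) overlapped between genotypes. Of their rows, 7 myocardial ones lay lower in both mutants, and 3 endocardial ones lay lower and 2 higher, none by 1.5-fold. In such bulk samples, fewer cells of a type and less RNA per cell cannot be told apart.

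Genes near *egr3* differed between genotypes more often than genes of the whole table, and in both directions. A gene was counted as different when both mutant pools lay on the same side of both wild-type pools and the fold change was at least 1.5. Of the 124 neighbors, 25 were higher and 13 were lower in mutants, together 38 genes or 30.6%, where the same limits were met by 12.0% of all tested genes (7.01% higher and 5.02% lower). At least a 2-fold change without overlap was found for 24 neighbors (16 higher, 8 lower), against 5.75% of all tested genes (572 higher, 435 lower). Without regard to size, 45 neighbors lay above and 47 below the wild types in both mutant pools, which is 74.2% of the neighbors and 50.5% of all tested genes. The median log2 fold change of the neighbors was -0.01, so changes of any size were centered near 0, although more genes met the limits higher than lower. The median absolute log2 fold change was 0.30, against 0.19 over all tested genes. The spread between pools did not share this excess: the median absolute log2 difference between the pools of a genotype was 0.14 in wild types and 0.15 in mutants for neighbors, and 0.18 for all tested genes in either genotype.

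No neighbor reached an adjusted p under 0.05 in limma with Benjamini-Hochberg adjustment over all 17501 genes, where 1 gene of the table did (0.00571%). An unadjusted p under 0.05 was found for 58 neighbors (32 higher, 26 lower), or 46.8%, against 21.6% of all tested genes. The lowest adjusted p of a neighbor was 0.122, a value shared by 7 neighbors and reached by 74 genes of the table. With the replicate number as a block, 26 neighbors had an unadjusted p under 0.05, all of them among the 58, against 4.90% of all tested genes. Replicate 1 libraries alone gave 43 neighbors at least 1.5-fold apart (32 higher, 11 lower), against 23.2% of all tested genes, and replicate 2 libraries alone gave 49 (26 higher, 23 lower), against 26.0%. In both pairs the same way, 28 neighbors (22.6%) were at least 1.5-fold apart, against 5.91% of all tested genes.

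**Figure D1:**
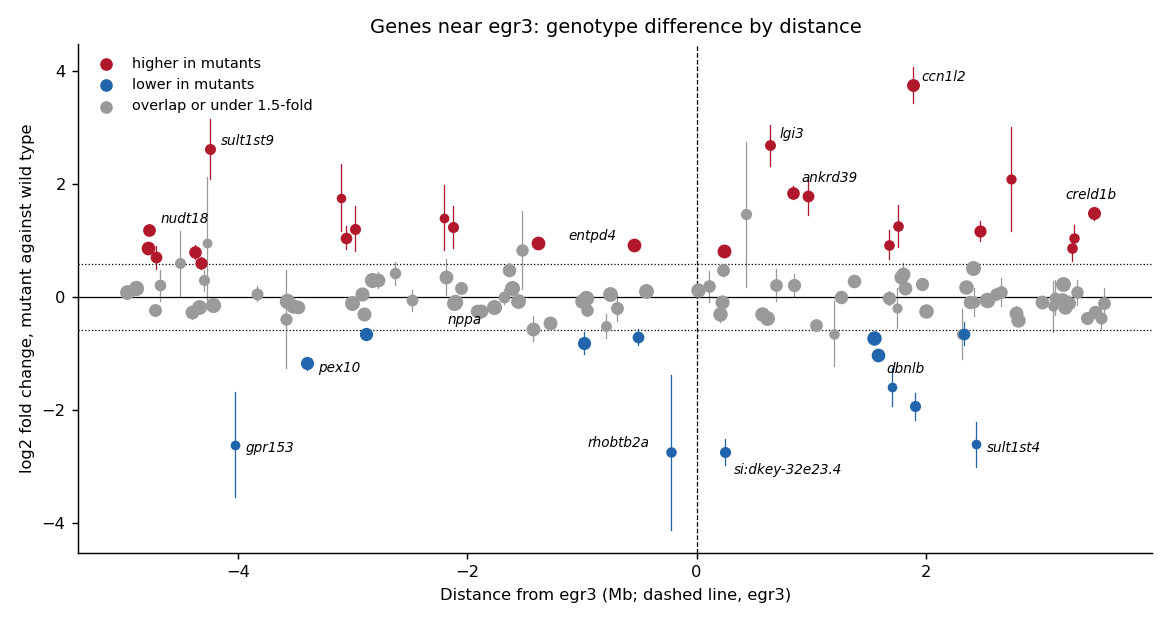
Log2 fold change of each of the 124 neighbors (mutant against wild type; bars, standard error of the fit; point size rises with mean level) against distance from *egr3* in Mb, negative toward smaller coordinates. Colored points are the 25 higher and 13 lower genes without overlap; dotted lines mark 1.5-fold. Higher and lower genes are mixed on both sides.

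Genes that differed were found in every 1 Mb band of the window, in shares that varied by side. Each side of *egr3* held 62 neighbors, of which 19 (30.6%) differed, 13 higher and 6 lower toward smaller coordinates and 12 higher and 7 lower toward larger ones. By distance, 9 of 26 genes differed within 1 Mb (34.6%), 8 of 29 between 1 and 2 Mb (27.6%), 8 of 28 between 2 and 3 Mb (28.6%), 6 of 24 between 3 and 4 Mb (25.0%) and 7 of 17 between 4 and 5 Mb (41.2%). The outermost band holds genes of the smaller-coordinate side only, because the last gene toward larger coordinates lay 3.55 Mb from *egr3*, near the last annotated gene end of chromosome 8 (54286201). Toward larger coordinates the share was 33.3% within 1 Mb, 38.9% from 1 to 2 Mb, 28.6% from 2 to 3 Mb and 20.0% beyond 3 Mb. Toward smaller coordinates it was 36.4%, 9.09% (1 of 11, below the share of all tested genes), 28.6%, 33.3% and 41.2% from the innermost to the outermost band. On this side the bands also differed in level, which was not separated from distance. The median mean count was 370 from 1 to 2 Mb and 94 from 4 to 5 Mb. Of the 13 lower genes, 8 lay within 2 Mb of *egr3*, against 9 of the 25 higher genes, a difference that was not tested. Lower genes were thus not the more frequent kind within 2 Mb. The contrast also depends on the band from 4 to 5 Mb, which held 6 higher genes and 1 lower gene. Within 1 Mb the sides also differed in direction, with 1 higher and 3 lower genes of 11 toward smaller coordinates and 4 higher and 1 lower of 15 toward larger ones.

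Beyond the window the share was closer to that of other chromosomes, with exceptions. Chromosome 8 genes more than 5 Mb away differed in 104 of 607 cases (17.1%), and genes on other chromosomes in 1962 of 16769 (11.7%). The share was 5 of 42 (11.9%) between 5 and 10 Mb, 18 of 92 (19.6%) between 10 and 20 Mb, 27 of 186 (14.5%) between 20 and 30 Mb, 38 of 154 (24.7%) between 30 and 40 Mb, and 15 of 132 (11.4%) beyond 40 Mb. Over the 24 other chromosomes the share ranged from 9.37% to 14.1% (chromosome 22). The bands of chromosome 8 from 10 to 40 Mb and the window itself lay above this range. They hold fewer genes than a whole chromosome, and shares of smaller sets scatter more. Bands on other chromosomes were not computed, so this comparison does not show that the excess is particular to chromosome 8. Genes on the same strand as *egr3* differed in 25 of 67 cases (37.3%) and genes on the opposite strand in 13 of 57 (22.8%). The same-strand genes were also less abundant, with a median mean count of 130 against 242. Genes of low level met the limits more often over the whole table, and strand was not separated from level. Distance was not separated from level either: the median mean count was 295 between 5 and 10 Mb and 173 for the neighbors.

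**Figure D2:**
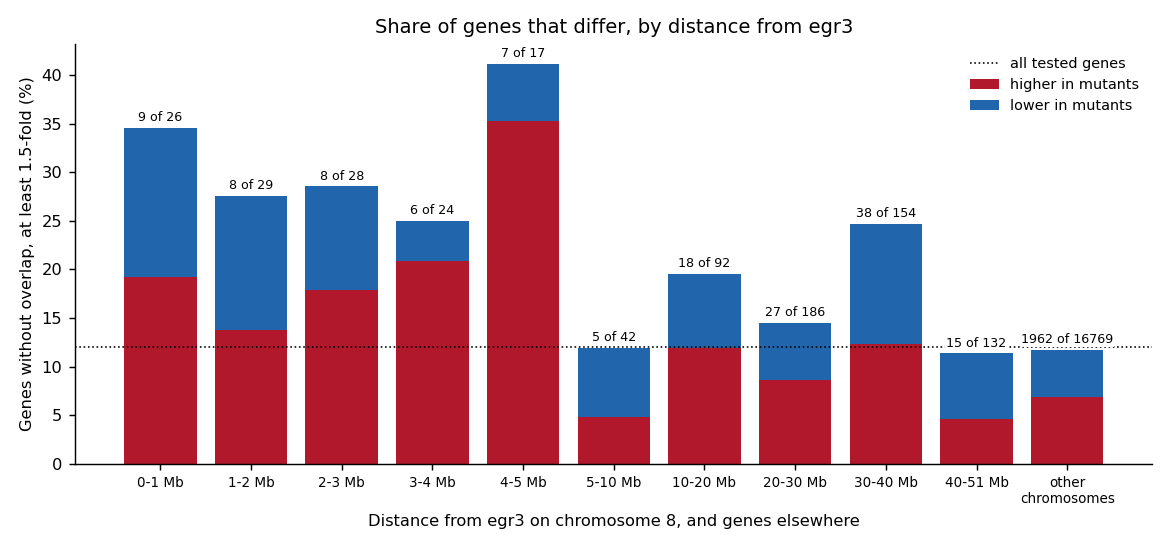
Share of genes (%) that differed without overlap and at least 1.5-fold, by distance from *egr3* on chromosome 8 and on other chromosomes; red, higher in mutants; blue, lower; dotted line, all tested genes (12.0%). The 5 bands inside 5 Mb range from 25.0% to 41.2%. The next band, from 5 to 10 Mb, is at 11.9%, and the band from 30 to 40 Mb is at 24.7%.

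Low values alone often pass a fold limit, so the neighbors were also read by expression level. With a mean from 5 to 50, 22 of 37 neighbors differed (59.5%), against 29.8% of all genes at that level. From 50 to 200, it was 10 of 30 (33.3%) against 13.2%, and from 200 to 1000 it was 6 of 37 (16.2%) against 2.71%. None of the 20 neighbors with a mean of 1000 or more differed by 1.5-fold, where 0.464% of all such genes did. Of these abundant neighbors, 85.0% still had no overlap between genotypes, against 59.7% of all genes at that level, so their differences were small but mostly larger than the gap between pools.

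**Figure D3:**
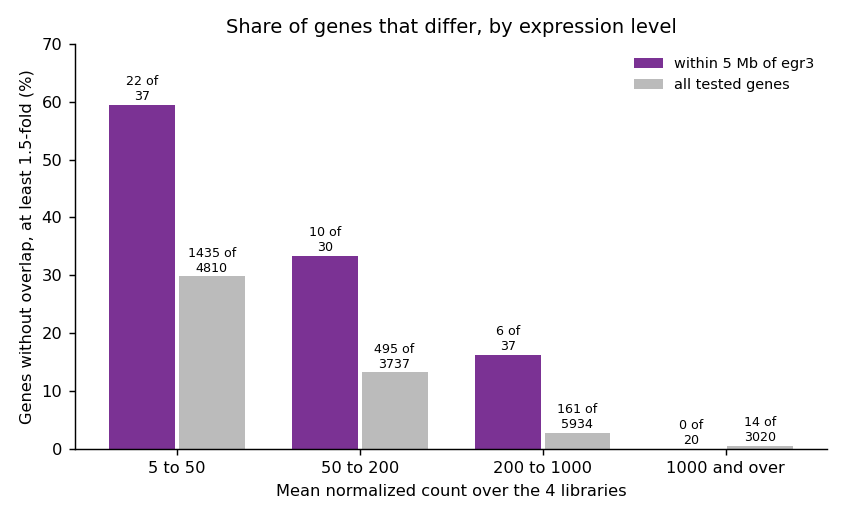
Share of genes (%) that differed without overlap and at least 1.5-fold, by mean normalized count, for the 124 neighbors (purple) and all 17501 tested genes (gray), with the counts above each bar. The purple bar is the taller one in the 3 lower bands and is at 0 in the highest band.

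The reference gene *egr3* (ENSDARG00000089156, chromosome 8 from 50727220 to 50733508, plus strand, danRer11) held normalized counts of 528 and 537 in wild types and 873 and 889 in mutants. Its transcript was thus present and higher in the mutants, and the count does not check the 11-bp deletion itself. The 10 genes closest to it, 5 on each side, showed no common direction. Toward larger coordinates *bin3*, 0.0095 Mb away and encoding a BAR-domain protein, held 774 and 741 in wild types and 791 and 856 in mutants, both mutants being slightly higher (log2 fold change 0.12, SE 0.06). *acsl2*, a long-chain acyl-CoA synthetase family member, held 79 and 114 against 127 and 92, and the genotypes overlapped. *b2ml*, a beta-2-microglobulin-like gene, held 937 and 800 against 636 and 771, lower in both mutants by less than 1.5-fold (-0.31, SE 0.14). *UBL4A*, a ubiquitin-like protein of the tail-anchored protein pathway, held 585 and 662 against 611 and 559 and overlapped. The transcript *CR855300.1*, with no annotated coding sequence, held 120 and 113 against 154 and 169, higher in both mutants (0.47, SE 0.10).

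Toward smaller coordinates the nearest neighbor was *rhobtb2a*, 0.225 Mb away. Its normalized counts were 6 and 38 in wild types and 5 and 0 in mutants. The log2 fold change of -2.75 (SE 1.37; limma adjusted p = 0.340) came almost wholly from replicate 2: it was -0.22 between the replicate 1 libraries and -5.29 between the replicate 2 libraries, and its highest value stood in the library with the high skin marker sum, whose part in the result was not tested. *nkx2.7*, a cardiac homeobox factor, held 1422 and 1572 against 1658 and 1553 and overlapped. *slc25a37*, the mitochondrial iron importer mitoferrin, which supplies iron for heme in red cells, held 49 and 47 against 28 and 30, lower in both mutants by more than the gap between pools (-0.71, SE 0.14). The summed level of 7 red cell markers was 13292 to 13610 in wild types and 13609 to 14450 in mutants. Of these markers, 2 lay higher and 1 lower in both mutants, and 4 overlapped. Their part in the *slc25a37* value was not tested. *entpd4*, a nucleotide-hydrolyzing enzyme of intracellular membranes, held 252 and 260 against 481 and 484, so that the genotypes were far apart and the pools of each genotype nearly equal (0.91, SE 0.06; limma adjusted p = 0.122). *gfpt1*, which catalyzes the first step of hexosamine synthesis, held 158 and 120 against 103 and 140 and overlapped.

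Among genes of secreted and surface proteins, the highest fold change belonged to *ccn1l2*, a member of the CCN family of matrix-associated signaling proteins, 1.89 Mb toward larger coordinates (chromosome 8 from 52619365 to 52631064). Its normalized counts were 14 and 21 in wild types and 298 and 199 in mutants (log2 fold change 3.75, SE 0.32; limma adjusted p = 0.122). Both replicate pairs showed the difference, at 4.32 and 3.18 on the log2 scale. *lgi3*, a secreted leucine-rich repeat protein known mainly from the nervous system, held 3 and 5 against 37 and 25 (2.68, SE 0.37). It was near 0 in wild types and higher in both mutants, and the part of the neural markers given above, 2 of them higher and 1 lower, was not tested. *adam9*, a membrane-bound metalloprotease, held 247 and 234 against 421 and 461 (0.87, SE 0.08), with no overlap and close pools. *creld1b*, whose human relative CRELD1 has been linked to atrioventricular septal defects, held 71 and 81 against 223 and 204 (1.48, SE 0.12; limma adjusted p = 0.122). It lay near the far end of the window, 3.47 Mb from *egr3*, and was higher in both mutants by more than the gap between pools. *gpr153*, an orphan G protein-coupled receptor, held 18 and 5 against 0 and 2, lower in both mutants at levels where a few reads decide the value.

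Of the neighbors known from intracellular membranes and vesicle traffic, the next 5 were chosen after their values were seen, and they differed in both directions. *plp2*, a proteolipid of the endoplasmic reticulum membrane, held 253 and 251 in wild types and 478 and 499 in mutants (log2 fold change 0.95, SE 0.06; limma adjusted p = 0.122). *rab7b*, a small GTPase of late endosomes that the reference table names RAB7A, held 307 and 302 against 523 and 550 (0.81, SE 0.06; limma adjusted p = 0.122). For both genes the pools of each genotype lay close together, and the genotypes were well apart. The other 3 met no 1.5-fold limit: *chmp7*, of the ESCRT machinery, held 1639 and 1783 against 1345 and 1279 (-0.38, SE 0.06), *rer1*, which retrieves proteins to the endoplasmic reticulum, held 1948 and 1920 against 1656 and 1740 (-0.19, SE 0.04), and *vps13a*, a lipid transfer protein, held 249 and 237 against 231 and 252 and overlapped.

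Among the 38 genes that differed, 4 with roles in ubiquitin transfer are named here, 2 higher and 2 lower, chosen after their values were seen. *klhl22*, an adaptor of cullin-3 ubiquitin ligases, held 15 and 23 in wild types and 80 and 55 in mutants (log2 fold change 1.78, SE 0.33). *RNF122*, a RING-finger ubiquitin ligase, held 9 and 6 against 15 and 24 (1.26, SE 0.37). Both were higher in each mutant pool, from a low level. *ube2d4*, a ubiquitin-conjugating enzyme, held 960 and 1105 against 650 and 585 (-0.74, SE 0.10), which made it the most abundant of the 38 genes that differed. *pex10*, a RING-finger protein that ubiquitinates the import receptor of peroxisomes, held 221 and 253 against 109 and 99 (-1.18, SE 0.12; limma adjusted p = 0.126). Both of these were lower in each mutant pool, with the genotypes well apart. Other neighbors with such roles did not meet the limits, among them *mib2*, a ubiquitin ligase (55 and 38 against 37 and 55), and *stambpb*, a deubiquitinase (343 and 438 against 572 and 464).

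Enzymes of nucleotide repair and of metabolism were also among the genes that differed. *nudt18*, a hydrolase of oxidized nucleotides, held 68 and 68 in wild types and 154 and 158 in mutants (log2 fold change 1.19, SE 0.09; limma adjusted p = 0.122). *ogg1*, the glycosylase that removes oxidized guanine from DNA, held 50 and 52 against 78 and 77 (0.59, SE 0.11). Both genes lie more than 4 Mb from *egr3* and were higher in the mutants with nearly equal pools. *C8H9orf64*, which the reference table names QNG1, held 197 and 254 against 141 and 113 (-0.82, SE 0.20). Of the 2 rows named *nadka*, a NAD kinase, one held 39 and 49 against 30 and 25 (-0.66, SE 0.20) and the other 22 and 40 against 24 and 14, with overlap. *COX5B*, a subunit of cytochrome c oxidase, held 10 and 8 against 16 and 20 (0.93, SE 0.26). *chdh*, the mitochondrial choline dehydrogenase, held 5 and 1 against 7 and 26, a difference of 0.42 between the replicate 1 libraries and 3.75 between the replicate 2 libraries on the log2 scale. The value for *chdh* thus rested mostly on the replicate 2 libraries.

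The actin-binding drebrin-like gene *dbnlb* gave the lowest unadjusted p of the neighbors (1.68e-04, limma). It held 439 and 440 in wild types and 210 and 217 in mutants (log2 fold change -1.04, SE 0.06; limma adjusted p = 0.122), 1.58 Mb from *egr3*. The ankyrin repeat gene *ankrd39* held 39 and 43 against 154 and 145 (1.84, SE 0.12), 0.840 Mb away. These genes lay on the same side of *egr3* with opposite directions. Each had a gap between genotypes many times that between pools, which follows from choosing both among the lowest p. *zgc:77112*, which the reference table names *ppp1r3c2b*, held 9 and 10 against 3 and 2, and *plch2a*, a phospholipase C, held 3 and 1 against 6 and 12, both at low levels.

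Sulfotransferases of the sult1st family, which conjugate sulfate to small phenolic compounds, lie in the window in several copies and did not move together. *sult1st9* held 6 and 3 in wild types and 22 and 45 in mutants (log2 fold change 2.62, SE 0.52), whereas *sult1st4*, on the other side of *egr3*, held 9 and 14 against 1 and 1 (-2.61, SE 0.39). *sult1st1*, the abundant member, held 2260 and 2146 against 1914 and 2087, a difference of -0.14. *sult1st7* held 8 and 1 against 3 and 16, with overlap and opposite directions in the replicate pairs. Reads that fit several copies were removed before counting, so these values are uncertain where the copies share sequence.

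Adjacent genes that differed had the same direction in some cases and opposite directions in others, and their order was not tested. Among the 38 genes in chromosome order, 21 of the 37 successive pairs had the same direction and 16 the opposite one, and of the 11 pairs that were also direct neighbors in the list of 124, 5 had the same direction. *ccn1l2* is followed by *si:dkey-90l8.3*, which held 36 and 31 in wild types and 7 and 9 in mutants (log2 fold change -1.94, SE 0.23), and *entpd4* by *slc25a37*, described above. By contrast, *ube2d4* and *dbnlb* stand next to each other and were both lower, and *adam9* and *nudt18* next to each other and both higher. *si:dkey-32e23.4* (38 and 34 against 4 and 5; log2 fold change -2.75, SE 0.23) overlaps *rab7b* on the opposite strand and differed in the opposite direction. The kit does not mark strand, so reads of this pair cannot be fully told apart where the annotations overlap. The transcript *BX649478.1* (2 and 4 against 14 and 6) overlaps one of 2 rows named *si:ch211-263k4.2*. Without the 12 neighbors that overlap another gene, 23 higher and 12 lower genes remained. The longest run of neighbors with no difference had 12 genes, from *nppb* to *prickle3*, and the longest runs of genes that differed had 3 (*pex10*, *plch2a* and *si:ch211-251b21.1*, and on the other side *ube2d4*, *dbnlb* and *COX5B*).

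**Figure D4:**
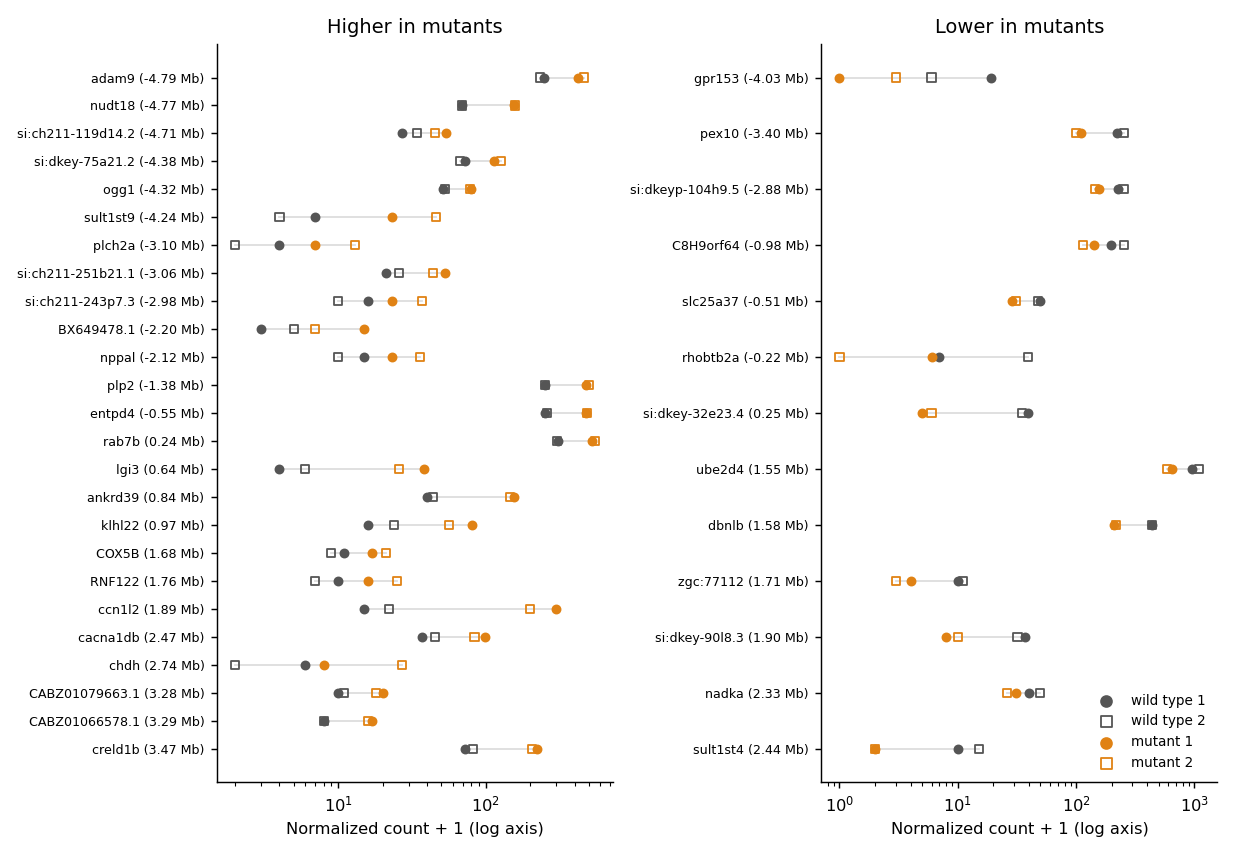
Normalized count + 1 (log axis) in each of the 4 libraries for the 25 higher (left) and 13 lower (right) neighbors, in chromosome order, with the distance from *egr3* beside each name; gray, wild type; orange, mutant; filled circles, replicate 1; open squares, replicate 2. *entpd4*, *plp2*, *nudt18* and *dbnlb* show nearly equal pools within each genotype, whereas *rhobtb2a* and *chdh* rest mostly on replicate 2.

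Some further neighbors are named for a role in heart or vessels; they are no fixed list and were chosen with their values known, and *creld1b*, higher in mutants, is described above. *nppa*, the atrial natriuretic peptide gene of the embryonic myocardium, held 3213 and 3332 in wild types and 3075 and 3070 in mutants, and *nppb* held 1793 and 1797 against 1631 and 1684. Both were lower in each mutant pool, by -0.09 (SE 0.03) and -0.12 (SE 0.03) on the log2 scale. Such shifts were not particular to these genes. Of the 8 rows of myocardial markers, which include *nppa*, 7 were lower, from -0.07 (*tnni1b*) to -0.12 (*myl7*), and *myh6* overlapped. The third natriuretic peptide gene of this cluster, *nppal*, held 14 and 9 against 22 and 35 (1.23, SE 0.37), the opposite direction at a far lower level. *fgfr1a*, a fibroblast growth factor receptor, held 82 and 119 against 136 and 96, and *plxnd1*, a semaphorin receptor of endothelium, 105 and 150 against 136 and 99. Both overlapped between genotypes. *fgf17*, a fibroblast growth factor, held 981 and 936 against 773 and 838 (-0.25, SE 0.06), *tcf7l1b*, a transcription factor of the Wnt pathway, 259 and 278 against 333 and 321 (0.28, SE 0.07), and *cabin1*, an inhibitor of calcineurin, 133 and 141 against 97 and 95 (-0.51, SE 0.09). These 3 had no overlap but stayed under 1.5-fold. *kank3*, expressed in vascular endothelium, held 538 and 590 against 471 and 445 (-0.30, SE 0.08), with part of its interval shared with *ndufa7* on the opposite strand. *bmp1a*, a procollagen-processing protease, held 3 and 20 against 57 and 10, with opposite directions in the replicate pairs (3.86 and -0.93). The gene labelled *cacna1db* held 36 and 44 against 98 and 83 (1.16, SE 0.18), but the reference table pairs its identifier with *cfap74*, so no channel function is assigned to it here.

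The 5 most abundant neighbors set the scale of small differences. *gnb1a*, a G protein beta subunit, held 3684 and 3856 in wild types and 3625 and 3586 in mutants (log2 fold change -0.06, SE 0.03). *ybx1*, a nucleic acid-binding protein, held 3195 and 3304 against 3077 and 3080 (-0.08, SE 0.03), like *nppa* slightly lower in both mutants. *hnrnpk*, a splicing factor, held 2747 and 2839 against 2753 and 2758 and overlapped. *ogdha*, a subunit of the 2-oxoglutarate dehydrogenase complex of mitochondria, held 2425 and 2344 against 2560 and 2741 (0.15, SE 0.05). Of these 5 genes, 4 had no overlap, each by less than 1.5-fold. Of all 3020 tested genes with a mean of 1000 or more, 59.7% had no overlap, 465 higher and 1338 lower. Small decreases were thus common among abundant genes of the whole table.

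**Figure D5:**
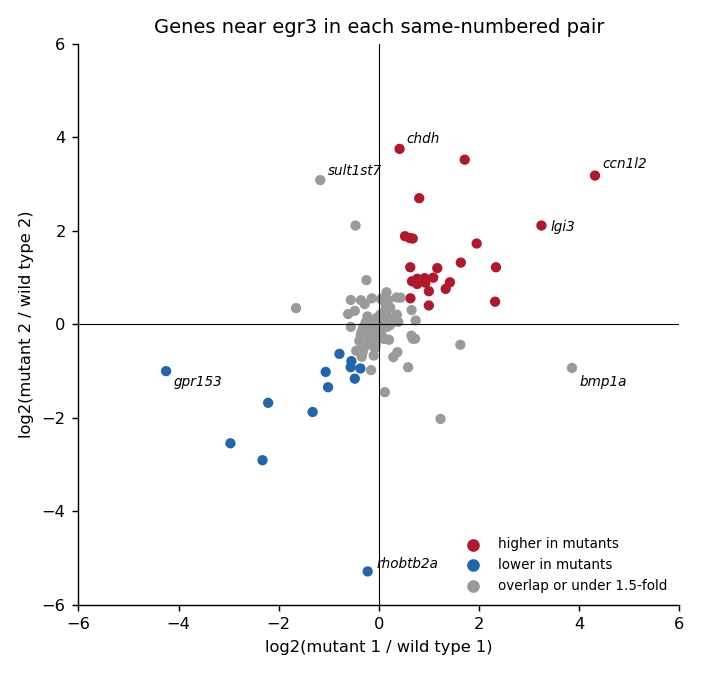
Log2 ratio of mutant to wild type in the replicate 1 libraries (horizontal) and in the replicate 2 libraries (vertical) for the 124 neighbors, on log2(normalized count + 1); colors as in the plot by distance. Colored genes can lie only in the quadrants of equal sign, because they were chosen for having both mutants on one side of both wild types. Of the 124 neighbors, 92 fall in these quadrants, and *bmp1a* and *sult1st7* lie in those of opposite sign.

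Part of this neighborhood is shared with the human chromosome segment around EGR3. A list of 62 names of human genes near EGR3 gave 55 tested zebrafish genes, of which 11 were neighbors of *egr3* and 44 lay elsewhere. Among the 11 neighbors, 5 differed: *nudt18*, *entpd4* and *lgi3* were higher, and *slc25a37* and *rhobtb2a* were lower. Among the 44 listed genes elsewhere, 5 differed (11.4%), near the 12.0% of all tested genes. The 11 genes are few, and *rhobtb2a* rests on replicate 2 as described above.

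At the edges of the rule, the outermost neighbor *ppiaa*, a cyclophilin, held 1281 and 1346 in wild types and 1400 and 1380 in mutants. *SLC18A1* crosses the 5 Mb limit and was not counted, with 55 and 38 against 87 and 130. The next genes outside, *ywhabb*, *mak16* and *tti2*, had log2 fold changes of -0.08, -0.03 and 0.13. Of 143 genes in the window, 19 had a mean under 5 and were left out. Among them *gabrd*, a GABA receptor subunit, was listed at 0 and 0 in wild types and at 4 and 6 in mutants, and *si:ch211-194e1.7* at 0 and 0 against 5 and 7.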

How the data were processed

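Total RNA from pools of dissected 48 hpf zebrafish hearts was sequenced as single-end reads from full-length cDNA (SMART-Seq v4), 2 libraries per genotype. According to the study's methods and the submitters' processing notes, reads were trimmed (Trimmomatic 0.39), aligned to danRer11 (STAR 2.7.10a), filtered for multi-mapping, duplicate (Picard 2.27.1), mitochondrial and ribosomal reads, counted on exons (featureCounts 2.0.2) and normalized (DESeq2 1.30.1). The deposited values are scores: normalized counts rounded to whole numbers. Same-numbered pools were tied to each other gene by gene, as given above. Scaling by a factor per library does not by itself do this. Whether the values were also adjusted gene by gene was not tested. The values are not whole reads, so the planned count models were not run. The depth behind a single value is known only through the library totals. Rounding and any further adjustment by the authors limit what low values and replicate differences can show. Columns of the authors' own comparison were not used.

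All genes whose mean was at least 5 entered a fit with limma 3.58.1 (R 4.3.3, lmFit, eBayes with trend) on log2(normalized count + 1). It used all 4 libraries and no block, with Benjamini-Hochberg adjustment over 17501 genes. The fit was checked on simulated data whose libraries varied independently, so the check does not cover the opposite deviations of same-numbered pools. Fold changes are on the scale of log2(normalized count + 1), which understates changes of low genes. Members, tests and lists were chosen with earlier results of these data known. Genes named with values were the 5 closest on each side, the 10 largest rises and falls without overlap, the 5 lowest p, the 5 highest means and listed human neighbors that differed; others were added for their role after their values were seen. Marker lists covered 10 tissues; besides those given in the report, the summed levels were 968 to 1283 for epicardium, 144 to 473 for liver and yolk, 3346 to 4735 for leukocytes and 2916 to 3670 for skeletal muscle, where 3 of 4 markers were higher in mutants. Symbols were matched to a gene name table for 118 of 124 members. Promoter and protein sequences were not used here. Alternatives changed the pseudocount, filter, variance model, scaling, window, block and libraries. Tables and figures were made in Python 3.11.15 (numpy 2.4.6, pandas 2.3.3, matplotlib 3.10.9).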

Additional observations from a re-analysis of the deposited data

How the results depend on the processing

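The counts of 25 higher and 13 lower neighbors became 24 to 25 and 13 to 14 under other pseudocounts and scalings. A pseudocount can alter the fold change but not the overlap. Variance models enter neither limit, so equal counts under them were fixed in advance. Wider lists hold all these neighbors, so their counts could not fall. These counts were 30 and 14 without the limit on the mean. They were 26 and 13 with genes reaching into the window, and 28 and 16 within 10 Mb. Smaller lists gave fewer genes by construction. With a mean of at least 20, 16 of 106 neighbors were higher and 9 lower, and 48 had an unadjusted p under 0.05 (limma). Of all genes at that mean, 21.9% had such a p, and the shares of higher and of lower genes were not computed. Within 2.5 Mb, 11 of 68 neighbors were higher and 10 lower, against 7.01% and 5.02% of all tested genes. There, 35 had an unadjusted p under 0.05 (limma), against 21.6% of all tested genes. Chosen after seeing the data, the 75 neighbors with a mean of at least 100 gave 7 higher and 5 lower. The share of all genes at that limit was not computed. It was 13.2% for means from 50 to 200, 2.71% from 200 to 1000 and 0.464% above, both directions together. Leaving out libraries gave 26 to 32 higher and 11 to 23 lower genes (28 and 13 without wild-type replicate 2). With fewer libraries the limit on overlap is easier to meet, so these counts cannot be read as stability. With 1 replicate pair left, only the 1.5-fold limit remains. It was met by 23.2% of all tested genes in replicate 1 and 26.0% in replicate 2. For the other omissions this share was not computed. The median absolute log2 fold change was from 0.30 to 0.48, the highest without both replicate 1 libraries, where 23 neighbors were lower. Fits with a lone library assume that it varies like the other genotype, so their p-values are not given.

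The replicate numbers come from the labels alone. With them as a block, 26 neighbors had an unadjusted p under 0.05 in place of 58. A crossed replicate block, added after seeing the data, put wild-type replicate 1 with mutant replicate 2, and wild-type replicate 2 with mutant replicate 1. It copies the opposite deviations seen in these data and so removes nearly all spread between pools. Small p-values were thus fixed in advance, and nothing is concluded from them. With this block, 105 neighbors had an unadjusted and 102 an adjusted p under 0.05 (limma). Of all tested genes, 71.4% had the former and 69.5% the latter.

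Of the 37 genes named by rule, 5 changed direction, all with overlapping genotypes. With equal totals it was *hnrnpk* (0.00089). Without single libraries or replicates they were *hnrnpk* (-0.043 to 0.0045), *gfpt1* (-0.61 to 0.22), *acsl2* (-0.31 to 0.68), *nkx2.7* (lowest -0.018) and *UBL4A* (highest 0.063). Genes added for their role were not part of this check. Some of them, among them *fgfr1a*, *plxnd1*, *mib2* and *bmp1a*, also had opposite directions in the replicate pairs. The cause was not tested.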

Other observations

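Among the 44 listed relatives of human EGR3 neighbors that lie elsewhere in the zebrafish genome, *chrna2b*, a nicotinic receptor subunit on chromosome 20, was listed at 0 and 0 in wild types and at 13 and 11 in mutants, and *ptk2bb*, a focal adhesion kinase family member beside it, at 85 and 104 against 44 and 37. *hmbox1a* on chromosome 17 held 276 and 277 against 166 and 171. These genes were chosen after their values were seen.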
